A study of Mus musculus with 14 samples.

Results

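Satellite repeat peaks were the peaks, outside the mitochondrial genome (chrM), whose detailed annotation by the authors named a repeat of the class Satellite. There were 1049 of them among 517016 peaks in 10 lists. The lists came from chromatin immunoprecipitation and sequencing (ChIP-seq) in the mouse myoblast line C2C12, whose cells fuse into myotubes once serum is lowered, harvested at differentiation day 2. The antibodies were directed at TDP-43, at MyoD, at Myogenin and at the serine 2 phosphorylated form of RNA polymerase II (Pol II S2P). The 6 control lists came from C2C12 cells with no transfection recorded in their labels, so a control siRNA is neither stated nor excluded. The 4 siMyolinc lists came from C2C12 cells that first received 10 nM of an siRNA to Myolinc, a long noncoding RNA, and then differentiated. There were 3 libraries for TDP-43 in control cells and 1 for each remaining antibody and condition. All cells were from the same line, and nothing in the labels says that the 3 libraries were separate cultures, so their spread may be technical. ChIP-seq gives no expression level, so neither the cell type nor the knockdown could be checked here.

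Satellites are short units repeated head to tail in long arrays, which in the mouse fill the chromatin around the centromeres. GSAT_MM is the gamma or major satellite, the main repeat of mouse pericentric heterochromatin. Such arrays are mostly missing from genome builds, because near-identical copies cannot be put in order, and only small blocks of them stand in the assembled chromosomes. TDP-43 is a DNA- and RNA-binding protein that prefers TG-rich or UG-rich repeats, MyoD and Myogenin are basic helix-loop-helix factors that activate muscle genes, and serine 2 phosphorylation marks elongating polymerase.

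The members carried 8 repeat names. IMPB_01 made up 686 of the peaks (65.4%), ZP3AR 171 (16.3%), GSAT_MM 139 (13.3%), SYNREP_MM 31 (2.96%) and MMSAT4 16 (1.53%). MurSAT1 had 4 peaks, and SUBTEL_sa and (CATTC)n had 1 each. GSAT_MM and SYNREP_MM stood apart from the other names in recurrence and, in the TDP-43 and Pol II S2P control lists, in score. They are described together below, though only GSAT_MM stood apart in position. That pairing was made after their values were seen.

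Depth differed between the libraries. Scores rose in whole steps within each list, and a step can be read as 1 sequence tag. If scores were scaled to 10000000 tags, which no header states, the 3 TDP-43 control libraries and the Pol II S2P control library held 962363 to 1455038 tags, and the other 6 held 3040129 to 3775523. The peak score is used below only relative to its own list, as a percentile, as a multiple of the list's median score, or as a share of the list's summed score. The median peak of a list rested on 6 to 15 tags, except in the siMyolinc MyoD list (24) and the siMyolinc Myogenin list (137), whose peaks were also narrow (75 bp against 217 to 249 bp).

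The share of satellite peaks fell into a high and a low set of lists. It was 0.700% (208 of 29703 peaks), 0.899% (95 of 10571) and 0.956% (78 of 8162) in TDP-43 control replicates 1 to 3. In the siMyolinc TDP-43 list it was 0.0801% (20 of 24960, 95% Wilson interval 0.0519 to 0.124%). Each control value exceeded the siMyolinc value, with a mean of 0.852 ± 0.134% (SD, n = 3), which was 10.6 times its value. The two-sided exact permutation p was 0.25, the smallest that 3 libraries and 1 allow, so this design cannot pass 0.05.

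Pol II S2P showed the same split, with 0.793% in control (85 of 10715, 0.642 to 0.980%) and 0.118% after knockdown (137 of 116064, 0.0999 to 0.14%). The difference was -0.675 percentage points (95% interval -0.863 to -0.522). MyoD and Myogenin had low shares in both conditions. MyoD had 0.107% in control (77 of 71878) and 0.157% after knockdown (172 of 109522), a difference of 0.0499 percentage points (0.0154 to 0.0830). That direction turned to -0.00276 points when only the upper part of each list, from its median score up, was kept. Myogenin had 0.106% in control (122 of 115000) and 0.269% after knockdown (55 of 20441), a difference of 0.163 points (0.0974 to 0.246). It shrank to 0.0154 points for peaks from the median score up and to 0.0368 points in lists of equal length. These 3 antibodies have 1 library per condition, so their intervals cover counting error only.

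Under the assumed scaling of scores, the 4 lists of the high set came from the libraries with the fewest tags. Read in the same way, the control MyoD and Myogenin libraries held 3378215 and 3400139 tags. The part of depth in these shares was not tested. For TDP-43 and Pol II S2P, the inferred depth differed between the conditions, and knockdown and depth cannot be told apart. In lists of equal length, made of the 8162 best peaks of each, the share in TDP-43 control replicate 1 was 0.429%, against 0.0735% in the siMyolinc TDP-43 list. Peaks tied in score at the cut were taken by chromosome name and start, so counts in these lists depend in part on that order.

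**Figure D1:**
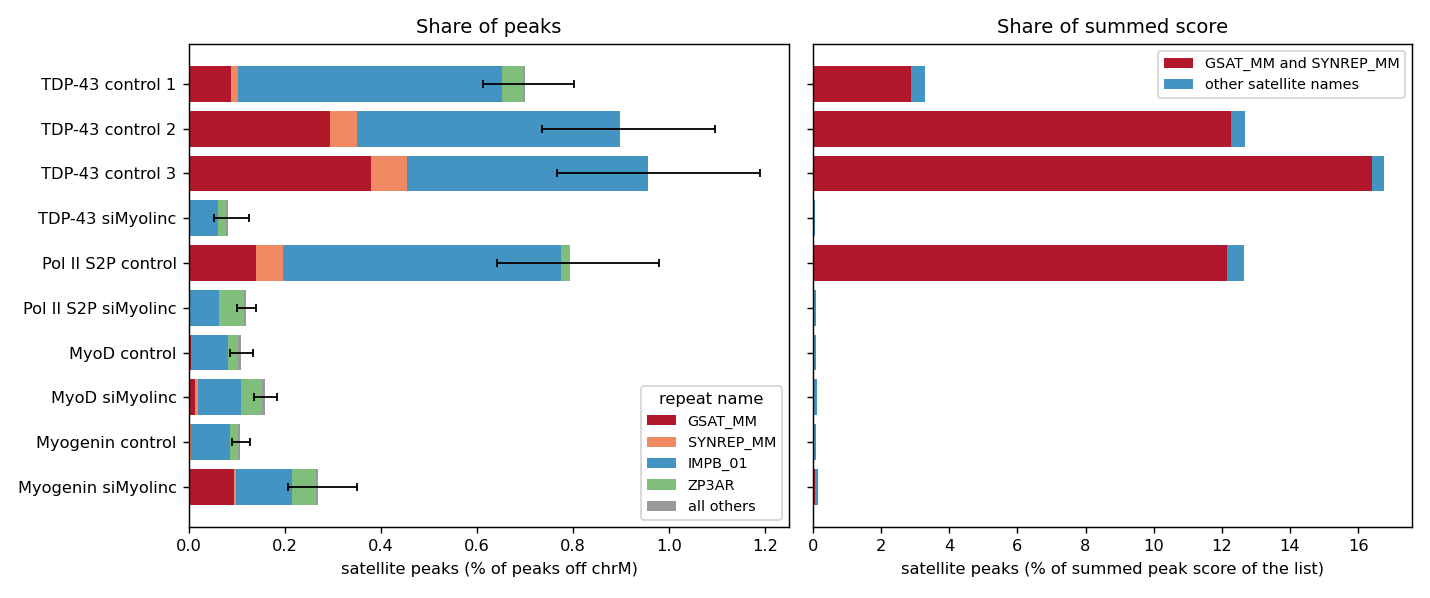
Satellite peaks as a percentage of all peaks off chrM (left, horizontal axis in %, bars coloured by repeat name, black lines the 95% Wilson interval of the total) and as a percentage of the summed peak score of the list (right), for the 10 lists. The 3 TDP-43 controls and the Pol II S2P control lie between 0.700 and 0.956% of peaks, and the other 6 lists lie at or below 0.269%.

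Other repeat classes were set beside satellites to see which share the split. Simple repeats, short tandem units such as runs of TG, had a share of 9.12 ± 0.867% in control TDP-43 (SD, n = 3) and of 1.32% after knockdown. The control share was 6.90 times the siMyolinc share for simple repeats and 10.6 times for satellites. For Pol II S2P these ratios were 6.91 and 6.72. Interspersed retrotransposons showed no fall of that size. LINE peaks made up 9.37 ± 0.286% in control TDP-43 (SD, n = 3) and 9.76% after knockdown. LTR peaks made up 4.95 ± 0.844% and 10.8%, and SINE peaks 3.34 ± 0.539% and 10.5%. The exact two-sided permutation test for TDP-43 gave p = 0.25 for each class, the smallest value possible. For Pol II S2P the control share was 1.21 times the siMyolinc share for LINE, 0.436 times for LTR and 0.466 times for SINE peaks.

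GSAT_MM and SYNREP_MM had peaks in all control TDP-43 lists and none after knockdown. TDP-43 control replicates 1 to 3 held 30, 37 and 37 of them (0.101, 0.350 and 0.453% of peaks), and the Pol II S2P control held 21 (0.196%). The siMyolinc TDP-43 list had 0 of 24960 peaks, which allows a share of up to 0.0120%, and the siMyolinc Pol II S2P list had 0 of 116064, which allows up to 0.00258%. The control mean for TDP-43 was 0.301 ± 0.181% (SD, n = 3), and the exact two-sided permutation test gave p = 0.5. The absence was not a feature of all siMyolinc lists. MyoD had 3 such peaks in control (0.00417%) and 19 after knockdown (0.0173%), and Myogenin had 3 (0.00261%) and 20 (0.0978%). In lists of equal length these counts were 1 and 4 for MyoD and 1 and 2 for Myogenin.

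In the full lists, the share of IMPB_01 was similar in the 4 lists of the high set. It was 0.552, 0.549 and 0.502% of peaks in TDP-43 control replicates 1 to 3 (mean 0.534 ± 0.0278%, SD, n = 3) and 0.579% in the Pol II S2P control. It was 0.0601% in the siMyolinc TDP-43 list, 0.0629% in the siMyolinc Pol II S2P list, and 0.0765 to 0.117% in the 4 MyoD and Myogenin lists. The control TDP-43 share was 8.89 times the siMyolinc share, and the two-sided exact permutation p was 0.25. The similarity did not hold in lists of equal length. There IMPB_01 had 7, 33 and 41 peaks in TDP-43 control replicates 1 to 3 (0.0858, 0.404 and 0.502%), 41 in the Pol II S2P control (0.502%) and 4 in the siMyolinc TDP-43 list (0.0490%). These counts depend in part on which tied peaks the cut kept.

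ZP3AR did not share this pattern. TDP-43 control replicate 1 held 13 ZP3AR peaks, replicates 2 and 3 held 0, and the siMyolinc TDP-43 list held 4. With 0 peaks, replicate 2 allows a share of up to 0.0284% and replicate 3 up to 0.0368%. The mean control share was 0.0146 ± 0.0253% (SD, n = 3) against 0.0160% after knockdown (exact two-sided permutation p = 1). Pol II S2P had 2 ZP3AR peaks in control (0.0187%) and 60 after knockdown (0.0517%). The interval of that difference ran from -0.0177 to 0.0531 points and so included 0. The Myogenin share was 0.0174% in control and 0.0489% after knockdown, and the MyoD share was 0.0209% and 0.0429%. The intervals of the difference were 0.00726 to 0.0731 and 0.00481 to 0.0384 points. With 1 library per condition, these intervals cover counting error only and do not measure a spread between libraries. ZP3AR was not counted in lists of equal length or from the median score up.

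Median scores differed between the repeat names within the same lists. GSAT_MM and SYNREP_MM peaks had a median score percentile of 99.9, 99.8 and 99.7 in TDP-43 control replicates 1 to 3 and 99.9 in the Pol II S2P control. Their median score was 5.25, 9.33, 7.0 and 8.51 times the list's median, and single peaks ran from 0.835 to 873 times. The other satellite peaks of these 4 lists had lower median percentiles, at 23.2, 20.4, 20.9 and 21.4. Single peaks among them reached percentiles 94.9, 93.4, 82.1 and 99.8. Simple repeat peaks had the same medians in these lists, so such values were not particular to satellites. With list medians of 8, 6, 6 and 6 tags, many peaks were tied, and a step of 1 tag moved the percentile far. In the siMyolinc MyoD and Myogenin lists the medians of GSAT_MM and SYNREP_MM parted. The 14 and 19 GSAT_MM peaks had median percentiles of 18.9 and 7.13 there, below the 24.8 and 23.8 of the names other than these. SYNREP_MM had a median percentile of 99.9 over 5 peaks in the MyoD list and 91.8 for its single peak in the Myogenin list. The 3 SYNREP_MM peaks of the MyoD list at or above percentile 99 all lay in the chromosome 2 block described below. A GSAT_MM peak of that block scored equally high (13.2 times the list's median). The remaining SYNREP_MM peaks of the MyoD list lay at percentiles 8.88 and 13.6.

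**Figure D2:**
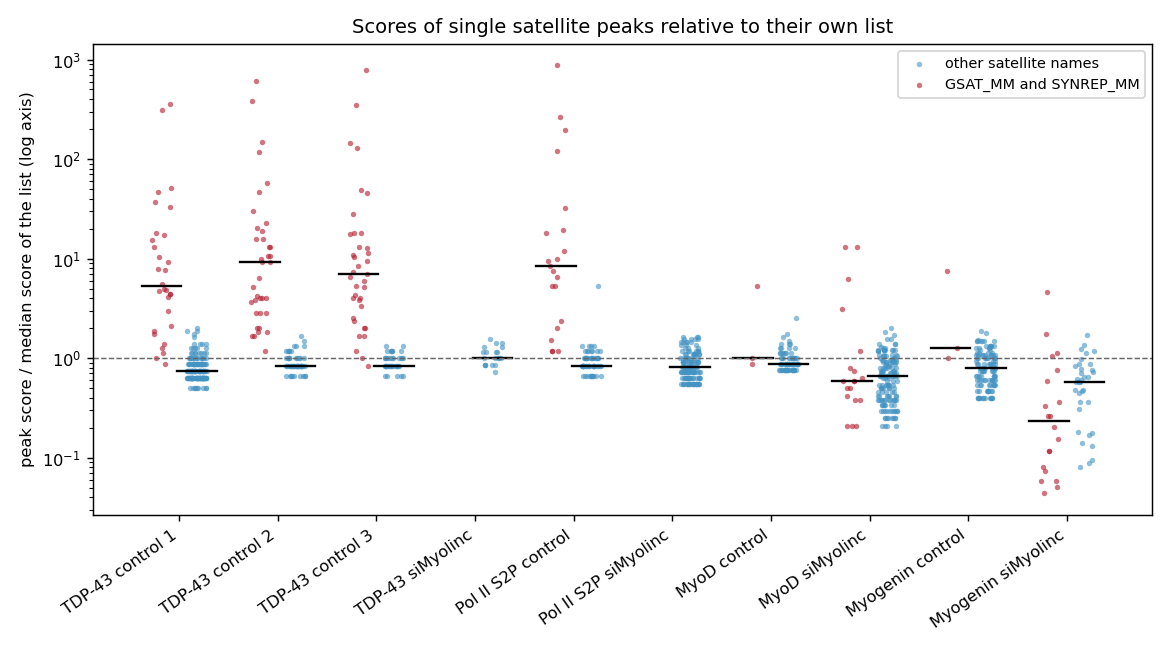
Score of each satellite peak divided by the median score of its own list (vertical log axis), for GSAT_MM and SYNREP_MM (red) and the other satellite names (blue) in the 10 lists; black bars are medians and the dashed line is the list's median. In the 3 TDP-43 controls and the Pol II S2P control the red medians lie at 5.25 to 9.33 and the blue medians at 0.749 to 0.835.

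Counting the top of each list gave the same picture. At or above score percentile 99 of its list stood 22 of the 208 satellite peaks of TDP-43 control replicate 1, where 0.980% of all peaks did. The counts were 30 of 95 in replicate 2 (background 1.15%), 29 of 78 in replicate 3 (0.894%) and 17 of 85 in the Pol II S2P control (0.999%). All of these were GSAT_MM or SYNREP_MM, except 1 IMPB_01 peak of the Pol II S2P control. None of the 20 satellite peaks of the siMyolinc TDP-43 list (1.19%) and none of the 137 of the siMyolinc Pol II S2P list (0.998%) reached it. In the MyoD lists 2 of 77 in control (1.08%) and 4 of 172 after knockdown (1.09%) did. In the Myogenin lists 1 of 122 (1.10%) and 1 of 55 (0.978%) did. Among the 10 best peaks off chrM of each list, 7, 9 and 9 were satellite in the TDP-43 controls and 8 in the Pol II S2P control. The siMyolinc MyoD list had 3, and the control MyoD, control Myogenin and siMyolinc Myogenin lists had 1 each. The siMyolinc TDP-43 and siMyolinc Pol II S2P lists had 0.

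In the TDP-43 and Pol II S2P control lists, satellite peaks therefore held a larger share of the summed score than of the peaks. Their share of the score was 3.30, 12.7 and 16.8% in TDP-43 control replicates 1 to 3 and 0.0783% in the siMyolinc list. The control mean of 10.9 ± 6.90% (SD, n = 3) had a two-sided exact permutation p of 0.5, and replicate 1 lay far below the other controls. Without chromosome 2 the control mean was 3.96%, against 0.0741% after knockdown. For Pol II S2P the share was 12.6% in control and 0.0935% after knockdown, and 2.98% and 0.0952% without chromosome 2. The 4 MyoD and Myogenin lists held between 0.0890 and 0.162%.

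The best-scoring satellite peak of 6 lists lay in a block of 4.71 kb on chromosome 2 (mm10 98662550 to 98667255), between genes. The nearest gene named by the authors, Lrrc4c, which encodes a synaptic adhesion protein, starts about 1195 kb away. The SYNREP_MM place at 98662550 to 98662809 scored 310, 612 and 794 times the list's median in TDP-43 control replicates 1 to 3, 873 times in the Pol II S2P control and 13.1 times in the siMyolinc MyoD list. The GSAT_MM place at 98667007 to 98667255 scored 353, 381 and 346 times in the TDP-43 controls and 265 times in the Pol II S2P control. It also had a peak in the siMyolinc MyoD list (13.2 times) and the siMyolinc Myogenin list (4.58 times). The GSAT_MM place varied less between the TDP-43 controls than the SYNREP_MM place.

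The ratio of the SYNREP_MM to the GSAT_MM place within a list was 0.879, 1.61 and 2.29 in TDP-43 control replicates 1 to 3 and 3.30 in the Pol II S2P control. It was 0.994 in the siMyolinc MyoD list. This block alone carried 1.96, 8.66 and 12.1% of the summed score of the TDP-43 controls and 10.1% of that of the Pol II S2P control. The siMyolinc TDP-43, siMyolinc Pol II S2P, control MyoD and control Myogenin lists had no peak of any annotation in it.

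The longest block was a GSAT_MM array of 36.5 kb at the proximal, assembled end of chromosome 9 (3000025 to 3036498), near Mir101c, a microRNA gene. It held 17 separate places. TDP-43 control replicates 1 to 3 had 11, 11 and 12 satellite peaks there, at 4.12 to 32.6, 4.0 to 30.0 and 4.0 to 27.9 times the list's median. The Pol II S2P control had 7, at 2.33 to 18.0 times. The siMyolinc MyoD and Myogenin lists had 7 and 6, mostly below their lists' medians, at 0.375 to 1.17 and 0.0584 to 0.358 times. The other 4 lists had none. A smaller block on chromosome 14 (19415751 to 19418893, nearest gene Gm5458) had peaks in the same lists. There too the TDP-43 and Pol II S2P controls scored above the siMyolinc MyoD and Myogenin lists. It had 3 peaks in each TDP-43 control, up to 37.1, 46.3 and 45.9 times the median, 2 in the Pol II S2P control (up to 32.2), 2 in the siMyolinc MyoD list (up to 0.792) and 5 in the siMyolinc Myogenin list (up to 0.752).

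**Figure D3:**
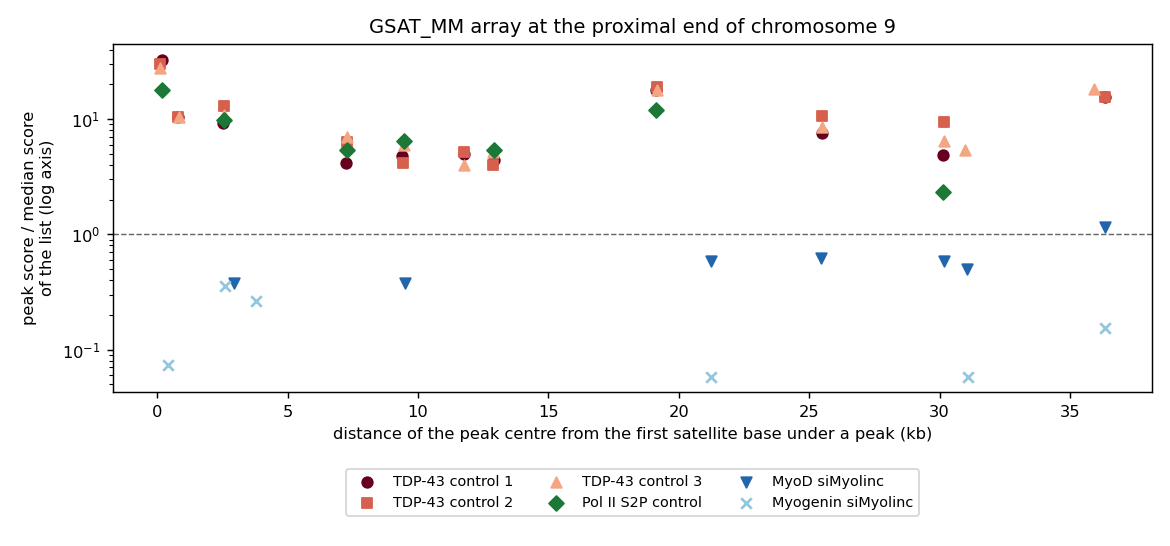
Peaks in the GSAT_MM array of chromosome 9, with the distance of the peak centre from the start of the array in kb (horizontal) and the score divided by the median score of the list (vertical log axis; dashed line at 1), for the 6 lists with peaks there. The TDP-43 controls lie at 4.0 to 32.6 along the array. The Pol II S2P control lies at 2.33 to 18.0, with its last peak at 30.1 kb, and the siMyolinc MyoD and Myogenin lists at 0.0584 to 1.17.

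Merging satellite peaks that overlapped by 1 bp or more gave 903 loci. Of these, 835 (92.5%) were found in a single list, close to the 92.9% of all loci merged in the same way. The names differed. Of the 56 GSAT_MM and SYNREP_MM loci, 18 (32.1%) were found in a single list, against 645 of 665 IMPB_01 loci and 152 of 161 ZP3AR loci. There were 11 satellite loci in 5 or more of the 10 lists (1.22%), where the background over all loci was 0.159%. All 11 were GSAT_MM or SYNREP_MM, and no locus was in more than 6 lists. With peaks from the median score up there were 3 such loci, and with lists of equal length also 3. The background over all loci was not computed for these settings. The part of peak score in the recurrence of the names was not tested.

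Of the loci in the most lists, 3 were in 6. They were the GSAT_MM place on chromosome 2, a place in the chromosome 14 block (19417715 to 19418165) and a SYNREP_MM place on chromosome X. The chromosome 14 place scored 13.0, 15.7 and 13.2 times the median in the TDP-43 controls and 9.34 times in the Pol II S2P control. It also had peaks in the siMyolinc MyoD (0.792) and siMyolinc Myogenin (0.117) lists. Another 8 were in 5 lists. Of these, the 5 with the highest mean score percentile are given here, and the other 3 lay on chromosomes 9, 12 and X. The highest was the SYNREP_MM place on chromosome 2. One lay at the end of the chromosome 14 block (19418645 to 19418893), with 37.1, 46.3 and 45.9 times the median in the TDP-43 controls. Another lay on chromosome 3 (56575441 to 56575775), at -392 kb from the start of Nbea, which encodes the trafficking protein neurobeachin. It had 2.12, 4.0 and 4.0 times the median in the TDP-43 controls, 2.00 in the Pol II S2P control and 0.873 in the MyoD control. The other 2 lay in the chromosome 9 array, at 3030040 to 3030288 and 3002434 to 3002701.

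The SYNREP_MM place on chromosome X (76598843 to 76599172, about 3.93 kb from the start of 4930468A15Rik) was the only satellite locus in all 6 control lists. It scored 1.12, 2.83 and 2.00 times the median in TDP-43 control replicates 1 to 3, 1.5 in the Pol II S2P control, 5.24 in the MyoD control and 7.47 in the Myogenin control. Both the MyoD and the Myogenin control value exceeded all 3 TDP-43 values here. It was the best peak off chrM of the control Myogenin list and ranked 5 in the control MyoD list. No siMyolinc list had a peak of any annotation overlapping it.

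**Figure D4:**
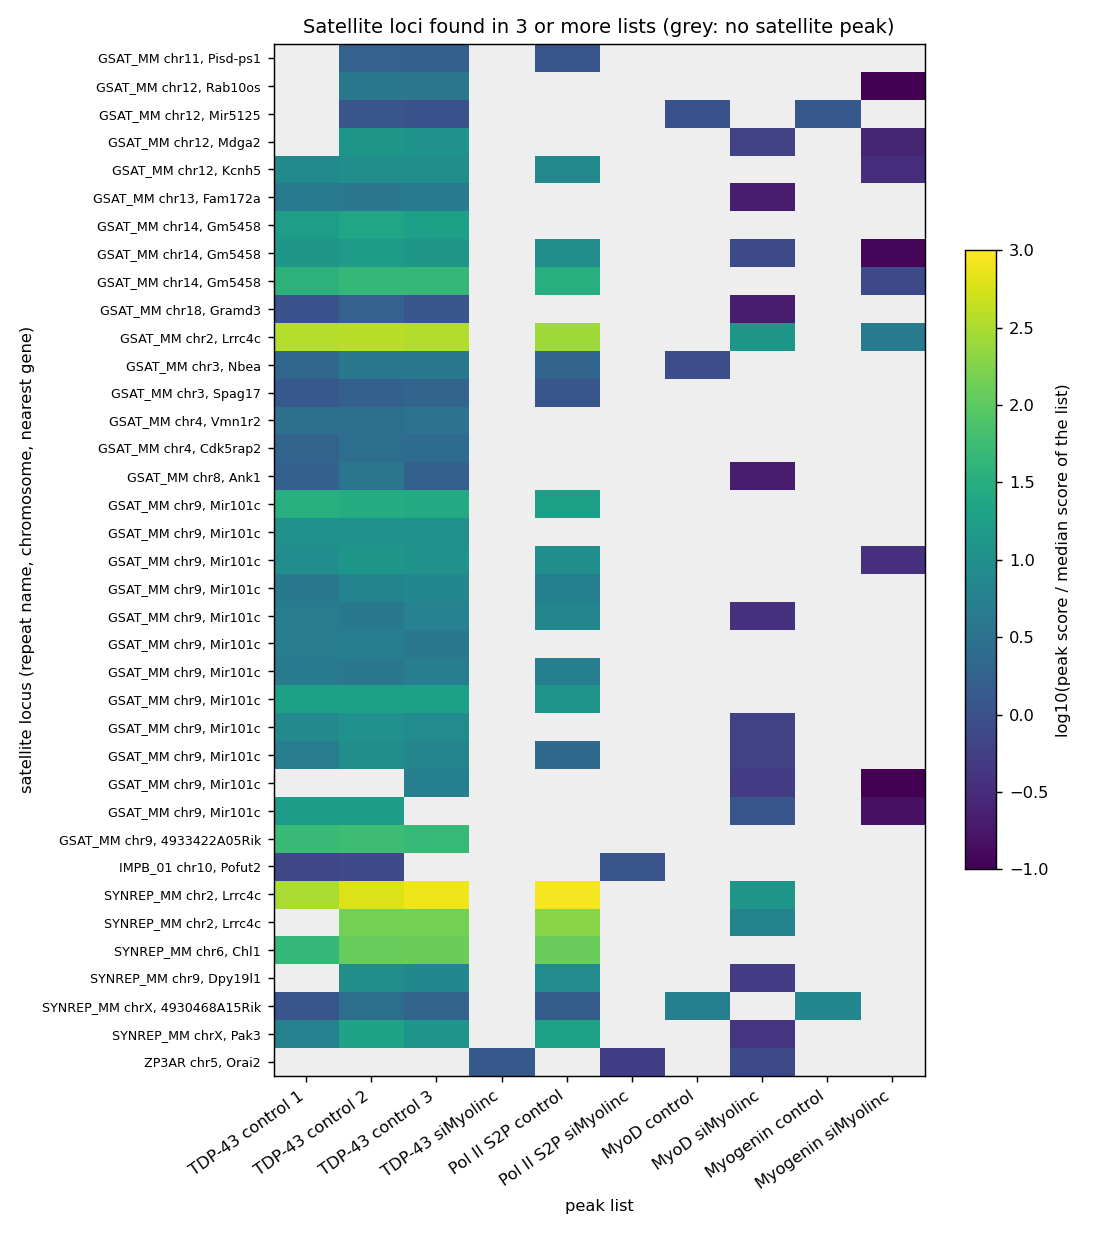
The 37 satellite loci found in 3 or more lists (rows, by repeat name, chromosome and nearest gene) across the 10 lists (columns); colour is log10 of the score divided by the median score of the list, grey is no satellite peak. Of the 37, 35 are GSAT_MM or SYNREP_MM, and the columns of the TDP-43 controls and the Pol II S2P control are the most filled.

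All 27 satellite loci found in the 3 TDP-43 controls were GSAT_MM or SYNREP_MM. Neither the siMyolinc TDP-43 list nor the siMyolinc Pol II S2P list had a satellite peak at any of them. The siMyolinc MyoD list had one at 10 and the siMyolinc Myogenin list at 5. The matching shares of all places found in the 3 TDP-43 controls were not computed, so the counts at these 27 are a description. Of all peaks of single TDP-43 controls, the siMyolinc TDP-43 list met 5.88 to 7.36% and the Pol II S2P control 12.0 to 21.6%. The Pol II S2P control had a satellite peak at 17 of the 27. At 13 of those 17 the repeat was GSAT_MM, and at 9 of the 13 the Pol II S2P multiple was below all 3 TDP-43 values. The same held for 24.0% of the 628 places of any kind found in these 4 lists. Pol II S2P lay above all 3 TDP-43 values at 2 GSAT_MM places and 1 of the 4 SYNREP_MM places, against a background of 18.6%. The Pol II S2P control is 1 library, so this difference between antibodies has no replicate check.

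The other 10 loci had no Pol II S2P control peak of any annotation. The examples given here were chosen after their values were seen. A GSAT_MM place on chromosome 9 outside the array (35305329 to 35305577, 24.3 kb from 4933422A05Rik) scored 51.0, 57.3 and 48.4 times the median in the TDP-43 controls and had no peak in any other list. A place in the chromosome 14 block (19416135 to 19416395) scored 17.1, 22.7 and 18.2 times. In contrast, a SYNREP_MM place on chromosome 6 (103649018 to 103649296, 138 kb from Chl1, a neural cell adhesion gene), also chosen after its values were seen, had 46.6, 118 and 128 times in TDP-43 and 121 in Pol II S2P.

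Overlap between the TDP-43 control lists was split by repeat name. The lists of a condition may have been called against the same IgG sample, since the headers name only IgG and each condition had 1. Any peak of replicate 2 met 31 of the 208 satellite peaks of replicate 1 (14.9%, background 13.4%), and replicate 3 met 29 (13.9%, background 10.9%). Of the 95 in replicate 2, replicate 1 met 33 (34.7%, background 37.6%) and replicate 3 met 36 (37.9%, background 27.5%). Of the 78 in replicate 3, replicate 1 met 29 (37.2%, background 39.8%) and replicate 2 met 38 (48.7%, background 35.7%). These totals lay on both sides of the background, and they were sums of unlike parts. GSAT_MM and SYNREP_MM peaks were met at 75.7 to 93.3%, and the other satellite peaks at 1.12 to 12.2%, below the background in every pair. The background covered peaks of all scores, while these groups of names differed in score. No background of like score was computed, and the part of score in these overlaps was not tested.

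The siMyolinc TDP-43 list met 3 of the 208 satellite peaks of control replicate 1 (background 5.88%), 1 of the 95 of replicate 2 (7.08%) and 0 of the 78 of replicate 3 (7.36%). None of these 4 was GSAT_MM or SYNREP_MM. The Pol II S2P control met 23 satellite peaks of replicate 1 (11.1%, background 12.0%), 21 of replicate 2 (22.1%, background 19.7%) and 22 of replicate 3 (28.2%, background 21.6%). Most of them were GSAT_MM or SYNREP_MM, at 17, 21 and 20. After knockdown 3 of the 85 satellite peaks of the Pol II S2P control were met (3.53%, background 10.5%), 2 of the 77 of MyoD (2.60%, background 1.77%) and 0 of the 122 of Myogenin (background 0.355%).

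Summed over the 10 lists, the most satellite peaks lay on chromosomes 5 (120 peaks), 9 (87), 2 (83), 7 (81) and 8 (59). They made up 0.398, 0.400, 0.206, 0.347 and 0.193% of all peaks of these chromosomes. The order differed between the lists. Chromosome 2 led in TDP-43 control replicate 1 with 22 peaks, chromosome 9 in replicates 2 and 3 with 14 and 15, chromosome 1 in the Pol II S2P control with 10, and chromosome 5 in the siMyolinc Pol II S2P and MyoD lists with 32 and 31. The leading repeat also differed among these chromosomes. On chromosome 9 GSAT_MM and SYNREP_MM gave 61 of 87, on chromosome 5 ZP3AR gave 89 of 120, on chromosome 7 ZP3AR gave 51 of 81, and IMPB_01 gave 63 of 83 on chromosome 2 and 46 of 59 on chromosome 8. IMPB_01 was found on all 21 chromosomes.

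**Figure D5:**
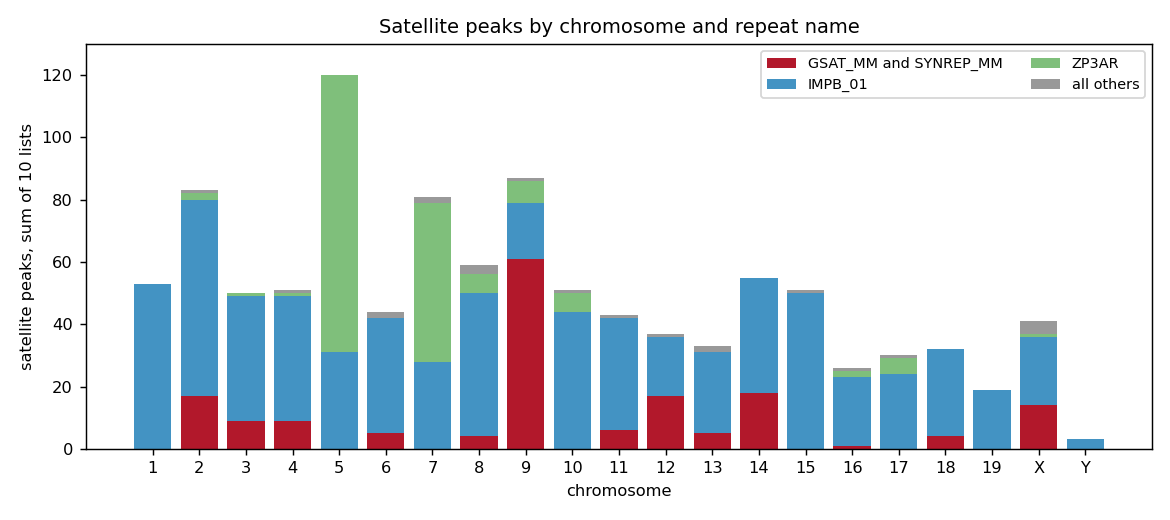
Number of satellite peaks on each chromosome, summed over the 10 lists and coloured by repeat name. ZP3AR (green) stands on chromosomes 5 and 7 with 89 and 51 peaks, and GSAT_MM with SYNREP_MM (red) on chromosome 9 with 61.

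ZP3AR was concentrated on 2 chromosomes. Chromosomes 5 and 7 held 140 of its 171 peaks (81.9%), while they held 10.4% of all peaks. On chromosome 5 all 89 lay between 128822568 and 144708448, a stretch with 14.9% of the peaks of that chromosome. On chromosome 7 all 51 lay between 3365517 and 45599311, a stretch with 27.4%. Both stretches were drawn from the peaks themselves, so they are a description. The siMyolinc Pol II S2P list had 32 of the chromosome 5 peaks, the siMyolinc MyoD list 24 and the control Myogenin list 12. The ZP3AR locus in the most lists lay 3.66 kb from the start of Orai2, a calcium channel gene, at 136166884 to 136167193. After knockdown it had a peak for TDP-43 (1.29 times the median), Pol II S2P (0.546) and MyoD (0.792). No control list had one. It was the only satellite locus in 3 siMyolinc lists, and none was in 4.

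Of the 139 GSAT_MM peaks, 68 (48.9%) lay within 5 Mb of coordinate 1, which in the mouse is the centromeric end, against 1.5% of all peaks off chrM. The chromosome 9 array, counted in 6 lists, gave 54 of the 68. Of the 85 GSAT_MM peaks outside it, 14 (16.5%) lay within 5 Mb, on 3 chromosomes. SYNREP_MM had none of 31 there, and IMPB_01 had 9 of 686 (1.31%). GSAT_MM peaks were 84.9% intergenic and IMPB_01 peaks 66.2%, against 50.3% of all peaks, while ZP3AR peaks were 40.9% intergenic. Every satellite peak was annotated as intergenic or intronic. Few lay near a start site: 20 of 1049 (1.91%) were within 2 kb of one, against 6.90% of all peaks, and none of these was GSAT_MM or SYNREP_MM.

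The best IMPB_01 peaks differed between the lists. The highest multiple was 5.34 times the list's median, at percentile 99.8, in the Pol II S2P control (chromosome 18, 6978986 to 6979210, nearest gene Mkx). In the MyoD control the best scored 2.50 times, at percentile 99.7. In TDP-43 control replicate 1 the best lay on chromosome 10 (106526616 to 106526864), in an intron, with Ppfia2, a synaptic scaffold gene, as the nearest gene, at 2.00 times the list's median. In replicate 2 it lay on chromosome 3 (25785773 to 25785991) with Nlgn1, a neuroligin gene, at 1.67 times. In replicate 3 it lay on chromosome 10 (120897191 to 120897409) with Msrb3, a methionine sulfoxide reductase gene, at 1.33 times, tied with another IMPB_01 peak. In the siMyolinc TDP-43 list the best satellite peak was an IMPB_01 peak on chromosome 11 (85402434 to 85402650) in an intron near Bcas3, at 1.57 times and percentile 93.7. In the siMyolinc Pol II S2P list the best score was tied, at 1.64 times and percentile 88.9. An intergenic IMPB_01 peak on chromosome 1 (97014558 to 97014776) held it, at -17.1 kb from the start of Slco6b1, an organic anion transporter gene. Another IMPB_01 peak and a ZP3AR peak on chromosome 5, with Foxk1 as the nearest gene, had the same score. In TDP-43 control replicates 1 to 3 the best IMPB_01 peak lay far below the best GSAT_MM or SYNREP_MM peak (353, 612 and 794 times). The ranges overlapped, since the lowest GSAT_MM or SYNREP_MM peaks of these lists scored 0.875, 1.17 and 0.835 times.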

How the data were processed

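Each of the 10 lists was called against IgG and annotated with HOMER on mm10, per the file headers and the submitters' processing notes. For the HOMER version, aligner, calling settings and treatment of reads that fit several places, the state is: not given in the sources used here. The last can change values at repeats. The peak score is the authors' value, and its scaling is not stated. The deposited focus ratio is a fraction from 0 to 1 and was not used for any result. The 4 input and IgG samples were not analysed here.

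Members were taken by the word Satellite in the deposited annotation. Overlap was 1 bp or more, and blocks were GSAT_MM or SYNREP_MM loci within 10 kb, with 3 or more loci. Shares carry 95% Wilson intervals, differences of shares the Newcombe interval, and an absence is limited at 3 counts. PCR copies are not independent, so these cover counting error only. TDP-43 was compared by an exact permutation test of 3 libraries against 1. Counting and overlap steps were tested on simulated lists. Python 3.11.15, pandas 2.3.3 and scipy 1.17.1 were used.

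Regions named by rule were the best satellite peak of each list, the 8 loci in the most lists (ties by mean score percentile), and the 5 leading repeat names and chromosomes. The members and lists were chosen with earlier results of these data known. Alternatives were peaks at or above the median score, lists of equal length, chrM kept, numbered chromosomes with X and Y, chromosome 2 left out, each TDP-43 control left out, a 50% overlap and merging within 1000 bp. For equal length, peaks tied in score at the cut were taken by chromosome name and start.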

Additional observations from a re-analysis of the deposited data

How the results depend on the processing

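Differences below are siMyolinc minus control in percentage points. When each list was limited to its upper part, from the median score up, the MyoD share of peaks turned from 0.0499 to -0.00276, the Myogenin share moved from 0.163 to 0.0154 and the Myogenin share of summed score from 0.0732 to 0.0301. In lists of equal length (8162 peaks) these Myogenin values were 0.0368 and 0.0259, the MyoD share of peaks was 0.0245, and the MyoD share of summed score was 0.166 in place of 0.0342. Without chromosome 2 the latter was 0.000194, and the share of summed score moved from -12.5 to -2.89 for Pol II S2P and from -10.8 to -3.88 for TDP-43. Satellite peaks of a TDP-43 control were met by another control at a mean of 31.2%, or 51.6% from the median score up and 50.9% in lists of equal length. The siMyolinc list met 0.832%, and 0 under both. Loci in 5 or more lists fell from 11 to 3 under both. The same values for all peaks were not computed under these settings, so these changes cannot be read as particular to satellites. Leaving out each TDP-43 control in turn gave -0.847 to -0.719 for the share of peaks, -14.6 to -7.91 for the share of summed score, 24.8 to 43.3% for overlap between controls and 0.526 (without replicate 1) to 1.25% with the siMyolinc list. Of 64 alternative values, 47 kept their sign and stayed within 1.5 times, and the other 17 are given above. Numbered chromosomes with X and Y changed nothing, since the lists hold no other. The cause of the changes was not tested. No paired analysis was possible because the labels number only the TDP-43 controls.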

Other observations

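Smaller blocks and rarer names, chosen after their values were seen, added the following. A GSAT_MM block on chromosome 4 (3089656 to 3091171, nearest gene Vmn1r2, a vomeronasal receptor) had 1, 2 and 2 peaks in TDP-43 control replicates 1 to 3, at up to 3.0, 2.83 and 3.34 times the median score of the list, and none in the other 7 lists. A block on chromosome 11 (3100358 to 3102113, nearest gene Pisd-ps1) had 1, 2 and 1 peaks in these replicates, at up to 1.37, 1.83 and 1.67 times. It also had 2 in the Pol II S2P control, at 1.17 times. A GSAT_MM place on chromosome 12 (74804279 to 74804531), with Kcnh5, a potassium channel gene, as the nearest gene, scored 7.87, 10.00 and 9.34 times in the TDP-43 controls and 7.51 times in the Pol II S2P control. It scored 0.328 times in the siMyolinc Myogenin list. A SYNREP_MM place on chromosome X (143482922 to 143483170), with the kinase gene Pak3 as the nearest gene, scored 5.50, 20.5 and 12.7 times in the TDP-43 controls, 19.4 in the Pol II S2P control and 0.417 in the siMyolinc MyoD list.

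MMSAT4 had no peak in the 3 TDP-43 control lists or the Pol II S2P control list, and 1 to 5 in each of the other 6. The absence allows shares of up to 0.0101 to 0.0368%, above the 0.00172 to 0.00556% of the other 6 lists, so no difference was detectable. Those peaks scored 0.375 to 1.33 times the median of the list. The 4 MurSAT1 peaks were all on chromosome X. Among ZP3AR peaks, the best of the siMyolinc MyoD list lay in an intron on chromosome 7 (27428687 to 27428761), nearest to Sptbn4, a spectrin gene, at 1.83 times the median. The best of the control Myogenin list lay on chromosome 7 (29449248 to 29449466), nearest to Sipa1l3, at 1.80 times.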
